A study of Mus musculus with 8 samples.

Results

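Semaphorins, plexins, neuropilins, ephrins and Eph receptors are the cell-surface and secreted guidance molecules of 2 ligand and receptor systems, and their transcripts were examined in cells sorted from mouse skin. Members were chosen by gene symbol: semaphorins of classes 3 to 7, plexins A to D, both neuropilins, the EphA and EphB receptors, and the A and B ephrins. This gave 53 of the 24421 genes measured, namely 20 semaphorins, 9 plexins, 2 neuropilins, 5 ephrin-A, 3 ephrin-B, 9 EphA and 5 EphB genes. Counted by side, 28 encode ligands and 25 receptors.

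Semaphorins are read by plexins, and the secreted class 3 semaphorins mostly need a neuropilin as co-receptor. Ephrins are anchored to the membrane, A ephrins by a lipid and B ephrins by a transmembrane segment, so that they act on Eph receptor tyrosine kinases of a touching cell and can signal back into their own cell. Both systems steer axons and vessels, and they act on the migration and spacing of neural crest cells, from which melanocytes descend.

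The cells came from back skin of 4 C57BL/6J mice that all carried the ROSA mTmG reporter and a Tyr:CreERT2 transgene. With this reporter a cell carries tdTomato until Cre recombinase acts and EGFP afterwards, and this Cre depends on tamoxifen and is driven by tyrosinase regulatory sequence, which is active in melanocytes. All mice received tamoxifen for 10 days from postnatal day 21, were depilated on day 50, and were exposed either to UVB at 150 mJ/cm2 or to normal light for 3 days before collection on day 54. The 4 groups were UV EGFP+, no UV EGFP+, UV tdTomato+ and no UV tdTomato+ cells, with 2 libraries each, and both sorts were made from every mouse. The EGFP+ sort stands for melanocytes and the tdTomato+ sort is a mixture of the other skin cells, in which a melanocyte that escaped recombination would remain. Ages, alleles and tamoxifen were shared by all groups, and mice without Cre were not analysed here.

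Library totals ran from 11186363 to 16711981 reads, and 11186 to 17076 genes had at least 1 read. All 8 melanocyte markers examined (Dct, Tyr, Tyrp1, Pmel, Mlana, Mitf, Sox10 and Kit) were higher in EGFP+ cells, with a summed level of 523784 to 615877 normalized reads in EGFP+ libraries and 2616 to 44454 in tdTomato+ libraries. The summed level of 6 keratinocyte markers was 567 to 835 in EGFP+ and 211652 to 320726 in tdTomato+ libraries. The library of UV EGFP+ replicate 2 stood apart, with the lowest number of genes and 0 reads for 28 of the 53 members, against 4 to 10 members at 0 in each of the other libraries. The 2 libraries of mouse 1 (replicate 1 without UV) had 397 and 1079 normalized reads of Xist, the RNA of the silenced X chromosome. The other libraries had at most 3.71. Genes of the Y chromosome went the other way (Uty, Kdm5d, Eif2s3y and Ddx3y summed). They had 3.33 and 8.80 normalized reads in mouse 1 and 2068 to 3911 in the other libraries. By these reads mouse 1 was female and the other mice male, while the labels give no sex. The no UV groups thus mix sexes and the UV groups do not, so sex is partly joined to every UV contrast. The part of sex in those contrasts was not tested. Efnb1, Plxna3 and Plxnb3 lie on the X chromosome. Values below are normalized reads per library, and a fold change is on the log2(normalized reads + 1) scale with its SE.

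Of the 53 members, 16 had at least 10 normalized reads in every library and 9 stayed under 10 in every library. Those 9 were Efnb3, Epha3, Epha6, Epha8, Plxnb3, Sema3g, Sema5b, Sema6b and Sema7a, and Epha6 alone was too low to be tested. A member was counted as detected in a group when both libraries had at least 10 normalized reads. By that count UV EGFP+ cells had 8 of 28 ligands and 11 of 25 receptors, and no UV EGFP+ cells 17 ligands and 15 receptors. UV tdTomato+ cells had 20 ligands and 16 receptors, and no UV tdTomato+ cells 18 ligands and 16 receptors. Because both libraries must reach 10, UV EGFP+ replicate 2, with 28 members at 0 reads, lowers the UV EGFP+ counts. Efna2 had 76.3 and 1.08, Sema3a 129 and 3.23, and Sema6d 73.0 and 0 normalized reads in UV EGFP+ replicates 1 and 2. Efnb2 went the other way, at 3.36 and 12.9. These counts have no share over all genes beside them.

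**Figure D1:**
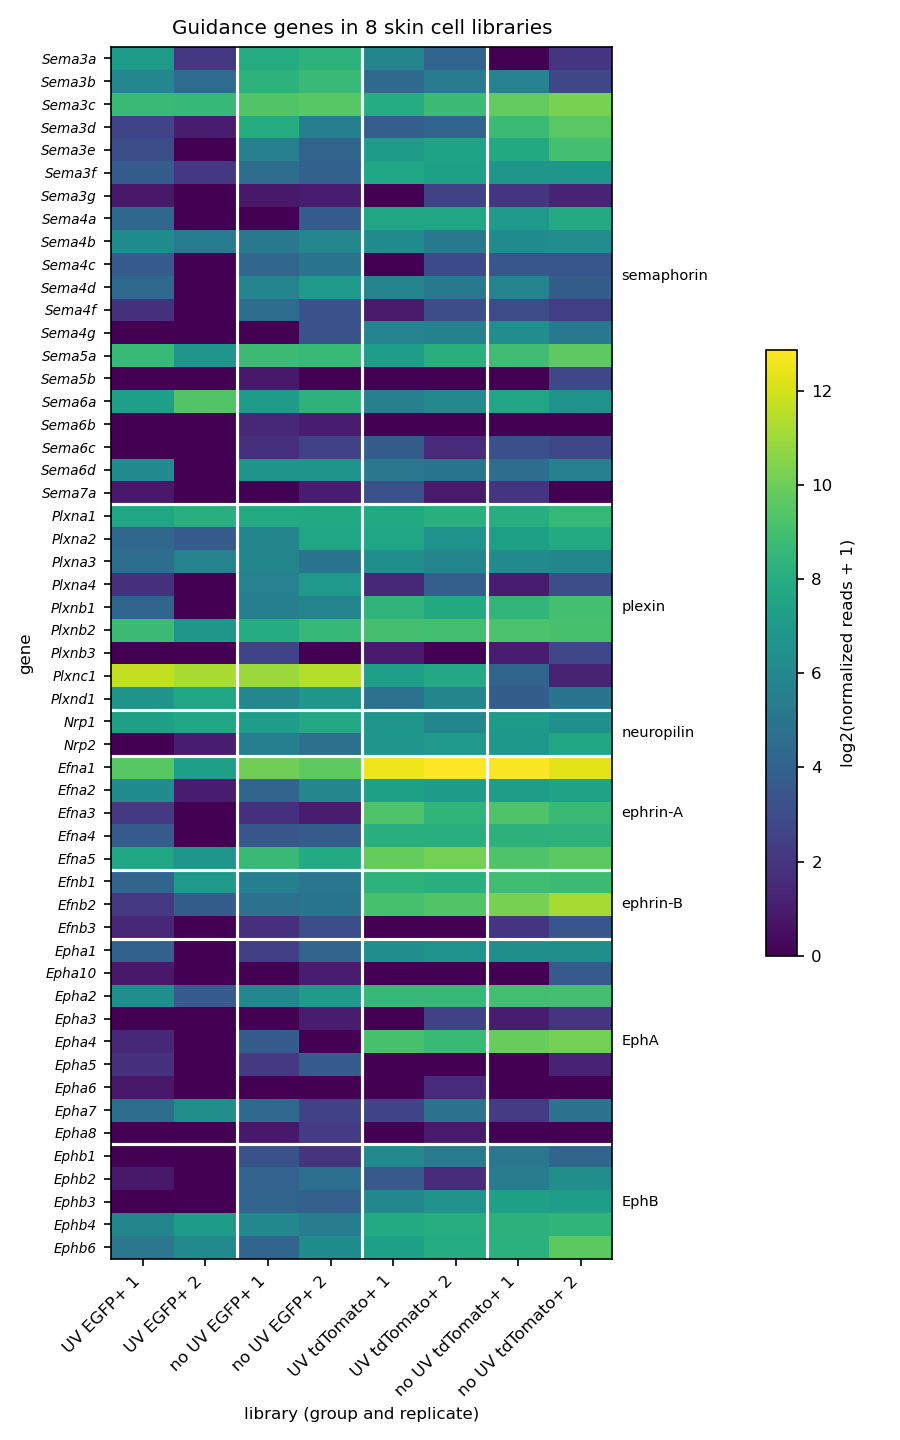
Level of the 53 guidance genes in the 8 libraries, as log2(normalized reads + 1) in colour, with genes in rows by class and libraries in columns by group and replicate. Plxnc1 is the brightest row in EGFP+ cells, Efna1 in tdTomato+ cells, and UV EGFP+ replicate 2 has 28 rows at 0.

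Levels summed over a class are given per kilobase of exon, because only such values can be compared between genes. Ephrins summed to 329 ± 256 (SD, n = 2) normalized reads per kb in UV EGFP+ cells and 641 ± 114 in no UV EGFP+ cells, against 4539 ± 541 in UV tdTomato+ cells and 4382 ± 619 in no UV tdTomato+ cells. Eph receptors summed to 51.6 ± 8.53 in UV EGFP+ and 55.1 ± 19.2 in no UV EGFP+ cells, against 293 ± 15.0 in UV tdTomato+ and 508 ± 122 in no UV tdTomato+ cells. Every tdTomato+ library was above every EGFP+ library on both sides of the ephrin system. Plexins and neuropilins stood the other way, at 448 ± 90.1 in UV EGFP+ and 407 ± 92.8 in no UV EGFP+ cells, against 188 ± 7.28 in UV tdTomato+ and 205 ± 22.7 in no UV tdTomato+ cells. Semaphorins summed to 151 ± 6.08 in UV EGFP+ and 308 ± 27.5 in no UV EGFP+ cells, against 192 ± 19.2 in UV tdTomato+ and 403 ± 94.6 in no UV tdTomato+ cells. Over all mice the sorts overlapped here, while the libraries with UV lay below those without UV in both. At matched treatment the EGFP+ libraries lay lower. With UV they had 156 and 147 against 179 and 206, and without UV 289 and 328 against 336 and 470. These sums carry no test, and 1 gene leads each of 2 of them. Efna1 had 3663 normalized reads per kb in UV tdTomato+ cells, its highest group. Plxnc1 had 341 in UV EGFP+ and 282 in no UV EGFP+ cells, against 22.1 and 1.08 in UV and no UV tdTomato+ cells. The higher plexin and neuropilin sums of EGFP+ cells rest on Plxnc1. Without it, the sums of both EGFP+ groups would lie below those of both tdTomato+ groups.

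**Figure D2:**
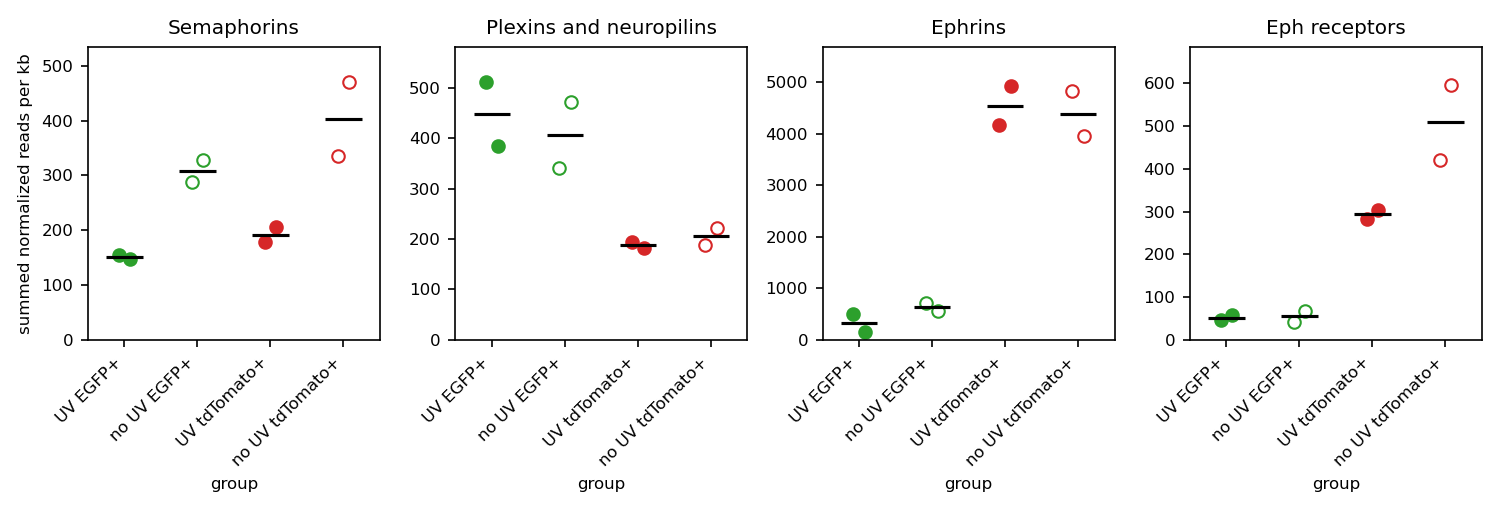
Summed normalized reads per kb of exon (linear axis from 0) for semaphorins, plexins with neuropilins, ephrins and Eph receptors, per library in each of the 4 groups, with a bar at the group mean. Ephrins and Eph receptors are higher in all tdTomato+ libraries, plexins with neuropilins in all EGFP+ libraries, and semaphorins lie lower with UV in both sorts. The higher sum of plexins with neuropilins in EGFP+ libraries rests on Plxnc1.

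Over all 4 mice, 24 of the 52 members tested differed between EGFP+ and tdTomato+ cells at limma adjusted p under 0.05, which is 46.2% of them, while 28.9% of all 18070 genes tested passed. Only 3 members were higher in EGFP+ cells (5.77%, background 9.66%), and 21 were lower (40.4%, background 19.2%). The higher ones were Plxnc1, Plxnd1 and Sema3b. The split was 7 higher and 19 lower under quantile normalization, and 6 and 20 after rescaling without the 20 most abundant genes. The sorts did not overlap for 3 members that were higher (9.8% of all genes) and 21 that were lower (18% of all genes) in EGFP+ cells. By side, 1 ligand was higher and 11 were lower of 28, and 2 receptors were higher and 10 lower of 24 tested. The median log2 fold change over the members was -1.06, beside -0.33 over all genes tested. These are bulk samples, so fewer cells of a type and less RNA per cell cannot be told apart, and markers of other skin cells move with the same contrast. All 6 keratinocyte markers were lower in EGFP+ cells, as were 5 of 6 fibroblast, 4 of 6 endothelial and 4 of 6 immune markers. Fibroblast markers summed to 10.1 to 246 normalized reads in EGFP+ and 8276 to 17429 in tdTomato+ libraries, endothelial markers to 1.08 to 49.9 and 74.2 to 1954, and immune markers to 5.39 to 322 and 1341 to 10218. Schwann cell markers were split, with 1 of 6 higher and 2 lower in EGFP+ cells. They summed to 5117 to 9358 normalized reads in EGFP+ and 404 to 1566 in tdTomato+ libraries. The part of these cell types in the differences of the members was not tested.

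**Figure D3:**
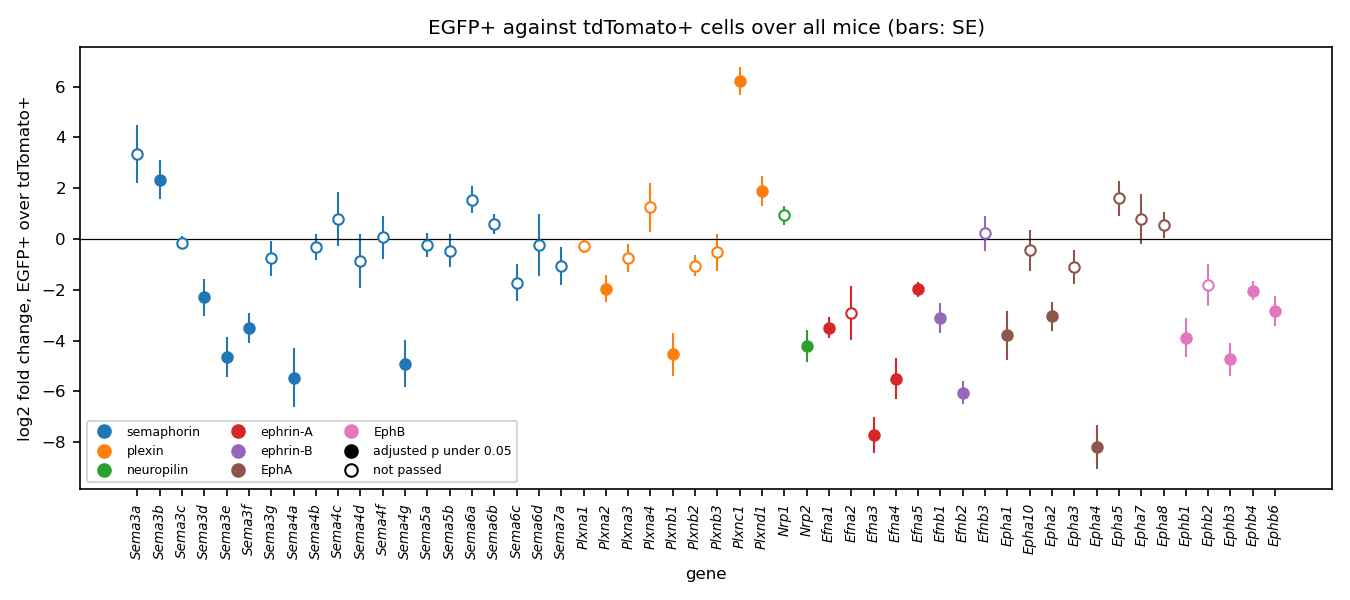
Log2 fold change of EGFP+ over tdTomato+ cells across all mice for the 52 members tested, with SE bars, coloured by class. Filled points passed limma adjusted p under 0.05: 3 above 0 (Plxnc1, Plxnd1 and Sema3b) and 21 below 0.

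Among receptors, Plxnc1 had the largest rise in EGFP+ cells. Plxnc1 encodes plexin C1, a receptor of semaphorin 7A, and lies on chromosome 10 of mm10 (chr10:94790866-94944835, minus strand). It had 3315 and 2386 normalized reads with UV and 1968 and 2739 without UV in EGFP+ cells, against 152 and 217 with UV and 16.6 and 1.43 without UV in tdTomato+ cells. The lowest EGFP+ library was at 1968 and the highest tdTomato+ library at 217 (log2 fold change 6.21 ± 0.56 (SE), limma adjusted p = 9.75e-05). Per kilobase it was the highest of the 53 members in UV EGFP+ cells and the second, after Efna1, in no UV EGFP+ cells. Sema7a, the gene of its ligand, stayed under 10 in every library. The call of Plxnc1 held in each of the 8 fits that left out 1 library, with a largest adjusted p of 0.00987 (limma).

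The 250 bases before the transcription start of Plxnc1 are shown because this gene had the largest rise among the members, beside those of Efnb2, the lower member with the smallest p, and Efna4, 1 of the lower ephrin-A genes described below. They are from RefSeq on GRCm38.p6, the assembly behind mm10, 5′ to 3′ on the gene's strand, at chr10:94944846-94945095, minus strand, chr8:8661243-8661492, minus strand and chr3:89338029-89338278, minus strand. Capitals mark the GC box GGGCGG or its reverse complement in Plxnc1 and Efnb2, and the SOX motif ACAAAG in Efna4.
Plxnc1: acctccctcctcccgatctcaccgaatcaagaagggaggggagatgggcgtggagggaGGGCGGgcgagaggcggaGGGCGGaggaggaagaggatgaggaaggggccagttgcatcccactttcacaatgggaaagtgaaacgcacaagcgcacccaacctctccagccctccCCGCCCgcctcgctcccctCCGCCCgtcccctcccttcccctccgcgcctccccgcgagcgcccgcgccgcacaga
Efnb2: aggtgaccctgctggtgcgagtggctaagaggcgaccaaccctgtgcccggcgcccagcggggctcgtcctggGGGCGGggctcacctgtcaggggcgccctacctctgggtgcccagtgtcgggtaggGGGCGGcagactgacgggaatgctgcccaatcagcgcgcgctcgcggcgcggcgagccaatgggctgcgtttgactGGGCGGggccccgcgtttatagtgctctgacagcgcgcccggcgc
Efna4: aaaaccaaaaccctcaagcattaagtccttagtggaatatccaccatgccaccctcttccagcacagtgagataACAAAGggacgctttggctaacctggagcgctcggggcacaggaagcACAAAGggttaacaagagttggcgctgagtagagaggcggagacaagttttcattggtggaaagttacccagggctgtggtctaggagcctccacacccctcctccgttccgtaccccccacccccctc

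Promoters were found for 47 of the 53 members, 61 in all. On either strand, GGGCGG was present in 46 of the 61 (75.4%), against 32.7% of all 32851 promoters of the same length. The E-boxes CACGTG (3 of 61, against 6.02% of all) and CATGTG (2 of 61, against 12.2%), the core of sites bound by MITF, were in neither the Plxnc1 nor the Plxnd1 window. ACAAAG was in 7 of 61 (16.5% of all) and the AP-1 motif TGANTCA in 3 of 61 (6.75% of all). Matches are a description of these letters in these windows, and none of them shows binding.

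The other plexins and neuropilins moved both ways. Plxnd1, the receptor of semaphorin 3E in vessels, had 99.8 and 185 normalized reads with UV and 61.5 and 109 without UV in EGFP+ cells, against 26.6 and 58.4 with UV and 12.7 and 30.0 without UV in tdTomato+ cells. Its lowest EGFP+ library was 61.5 and its highest tdTomato+ library 58.4, so the sorts came close without overlapping (log2 fold change 1.89 ± 0.57 (SE), limma adjusted p = 0.0386). This call was lost in 7 of 8 fits without 1 library, with adjusted p (limma) up to 0.141 without no UV EGFP+ replicate 2. Plxnb1, a receptor of semaphorin 4D, had 16.8 and 0 normalized reads with UV and 45.7 and 55.1 without UV in EGFP+ cells, against 333 and 225 with UV and 353 and 519.5 without UV in tdTomato+ cells. Its EGFP+ libraries were at most 55.1 and its tdTomato+ libraries at least 225 (log2 fold change -4.55 ± 0.84 (SE), limma adjusted p = 0.00407). The Plxnb1 call was lost in 5 of 8 fits without 1 library. Plxna2, a class A plexin that works with neuropilins, had 18.5 and 11.9 normalized reads with UV and 59.1 and 196 without UV in EGFP+ cells, against 191 and 93.7 with UV and 159 and 228 without UV in tdTomato+ cells, with 1 EGFP+ library, no UV replicate 2, inside the tdTomato+ range (log2 fold change -1.95 ± 0.53 (SE), limma adjusted p = 0.0251; 0.144 under quantile normalization and 0.0518 without UV EGFP+ replicate 2). The remaining 5 plexins, Plxna1, Plxna3, Plxna4, Plxnb2 and Plxnb3, did not pass, with log2 fold changes from -1.05 ± 0.41 to 1.25 ± 0.96.

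The 2 neuropilins, co-receptors shared by class 3 semaphorins and VEGF, stood in opposite directions. Nrp2, which favours semaphorin 3F, had 0 and 1.08 normalized reads with UV and 46.6 and 25.7 without UV in EGFP+ cells, against 108 and 119 with UV and 113 and 206 without UV in tdTomato+ cells. It was lower in EGFP+ cells without overlap (log2 fold change -4.21 ± 0.63 (SE), limma adjusted p = 0.00144), and with UV it had 1 read in both EGFP+ libraries together against 246 in the tdTomato+ libraries (tdTomato+ over EGFP+ 240.3, 95% counting interval 42.7 to 9531). Nrp1, which favours semaphorin 3A, had 159 and 191 normalized reads with UV and 145 and 218 without UV in EGFP+ cells, against 105 and 59.3 with UV and 132 and 85.6 without UV in tdTomato+ cells. All EGFP+ libraries of Nrp1 were above all tdTomato+ libraries, yet the difference did not pass (log2 fold change 0.93 ± 0.38 (SE), limma adjusted p = 0.1); it did pass under quantile normalization (0.0243) and after rescaling (0.046).

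Semaphorins, the ligands of these receptors, were split. In EGFP+ cells 1 of 20 was higher, 5 were lower and 14 did not pass, with a median of -0.39. The share called was 30%, near the 28.9% of all genes. Sema3b, a secreted semaphorin, had 62.1 and 21.6 normalized reads with UV and 319 and 408 without UV in EGFP+ cells, against 20.2 and 37.1 with UV and 51.8 and 5.71 without UV in tdTomato+ cells. The 2 no UV EGFP+ libraries were far above the rest, and those with UV lay near the tdTomato+ range (log2 fold change 2.34 ± 0.76 (SE), limma adjusted p = 0.0492). By arm, the difference passed without UV (log2 fold change 4.26 ± 1.07 (SE), limma adjusted p = 0.0254) and did not with UV (limma adjusted p = 0.871). With mouse as a block the all-mice adjusted p (limma) was 0.0612, and without no UV EGFP+ replicate 2 it was 0.197. Sema3a, the classic repellent of axons, had 129 and 3.23 normalized reads with UV and 240.4 and 316 without UV in EGFP+ cells, against 57.7 and 16.7 with UV and 0 and 2.85 without UV in tdTomato+ cells. Without UV it had 621 reads in EGFP+ cells and 2 in tdTomato+ cells, 237 times as many by normalized reads (95% counting interval 65.4 to 1964), and was called in that contrast (log2 fold change 7.14 ± 1.61 (SE), limma adjusted p = 0.0163). That call was lost in 6 of 8 fits without 1 library. Over all mice Sema3a did not pass with limma (adjusted p = 0.0589) but did with edgeR (0.00435) and with mouse as a block (0.026), and UV EGFP+ replicate 2 was the low library at 3.23.

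The lower semaphorins were secreted class 3 members and transmembrane class 4 members. Sema3f, the ligand that works through Nrp2, had 12.6 and 3.23 normalized reads with UV and 23.3 and 15.2 without UV in EGFP+ cells, against 192 and 159 with UV and 112 and 107 without UV in tdTomato+ cells, with no overlap (log2 fold change -3.50 ± 0.60 (SE), limma adjusted p = 0.00281). Sema3e, which binds Plxnd1 directly, had 7.55 and 0 normalized reads with UV and 47.4 and 16.2 without UV in EGFP+ cells, against 137 and 173 with UV and 224 and 515 without UV in tdTomato+ cells (log2 fold change -4.65 ± 0.80 (SE), limma adjusted p = 0.00291). Neither gene overlapped between the sorts. Sema4a, a class 4 semaphorin also known from immune cells and retina, had 18.5 and 0 normalized reads with UV and 0 and 12.4 without UV in EGFP+ cells, against 188 and 189 with UV and 117 and 233 without UV in tdTomato+ cells (log2 fold change -5.47 ± 1.16 (SE), limma adjusted p = 0.00809). The Sema4a call was lost in 5 of 8 fits without 1 library. Sema4g, another class 4 member, had 0 and 0 normalized reads with UV and 0 and 8.56 without UV in EGFP+ cells, against 52.2 and 50.1 with UV and 77.3 and 35.7 without UV in tdTomato+ cells, so that 3 of 4 EGFP+ libraries were at 0 (log2 fold change -4.91 ± 0.91 (SE), limma adjusted p = 0.00431). Sema3d, a class 3 member, had 5.03 and 1.08 normalized reads with UV and 252 and 46.6 without UV in EGFP+ cells, against 13.7 and 16.7 with UV and 442 and 768 without UV in tdTomato+ cells. Its sorts overlapped, since both EGFP+ libraries without UV were above both tdTomato+ libraries with UV (log2 fold change -2.30 ± 0.72 (SE), limma adjusted p = 0.0428), and the call was lost with mouse as a block (0.0634), under quantile normalization (0.472) and after rescaling (0.0619). The most abundant semaphorin, Sema3c, had 425 and 390.2 normalized reads with UV and 670.4 and 735 without UV in EGFP+ cells, against 247 and 454 with UV and 861 and 1259 without UV in tdTomato+ cells, with the sorts overlapping (log2 fold change -0.14 ± 0.25 (SE), limma adjusted p = 0.693).

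Ephrins are the ligands of Eph receptors. All 5 ephrin-A genes lay lower in every EGFP+ library than in any tdTomato+ library (18% of all genes). Of them, 4 passed, where 19.2% of all genes were called lower. Efna1 had 748 and 152 normalized reads with UV and 1075 and 823 without UV in EGFP+ cells, against 5938 and 7470.2 with UV and 6995 and 5155 without UV in tdTomato+ cells (log2 fold change -3.49 ± 0.43 (SE), limma adjusted p = 0.000513), and it led all 53 members per kilobase in the no UV EGFP+ group and both tdTomato+ groups. Efna3 had 3.36 and 0 normalized reads with UV and 2.5 and 0.951 without UV in EGFP+ cells, against 629.5 and 344 with UV and 632 and 427 without UV in tdTomato+ cells. Its 4 EGFP+ libraries were close to 0 (log2 fold change -7.72 ± 0.70 (SE), limma adjusted p = 0.000102). Efna4 had 11.7 and 0 normalized reads with UV and 9.98 and 12.4 without UV in EGFP+ cells, against 289.6 and 273 with UV and 308 and 321 without UV in tdTomato+ cells (log2 fold change -5.50 ± 0.81 (SE), limma adjusted p = 0.0013). These 3 genes are neighbours on the minus strand of chromosome 3, within 66296 bp of mm10 (chr3:89271733-89338028). Efna5, on chromosome 17, had 201 and 108 normalized reads with UV and 411 and 232 without UV in EGFP+ cells, against 894 and 1142 with UV and 636 and 796 without UV in tdTomato+ cells, a smaller difference that was still free of overlap (log2 fold change -1.99 ± 0.29 (SE), limma adjusted p = 0.0013). Efna2 did not pass (log2 fold change -2.92 ± 1.06 (SE), limma adjusted p = 0.0718), with 76.3 and 1.08 normalized reads in its 2 UV EGFP+ libraries, and did with mouse as a block (0.0433).

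Among B ephrins, whose receptors are the EphB kinases, Efnb2 and Efnb1 were lower. Efnb2, a marker of arterial vessels that is also made by dermal and epithelial cells, had 3.36 and 12.9 normalized reads with UV and 26.6 and 31.4 without UV in EGFP+ cells, against 553 and 661 with UV and 1198 and 2338 without UV in tdTomato+ cells. The highest EGFP+ library was at 31.4 and the lowest tdTomato+ library at 553 (log2 fold change -6.04 ± 0.46 (SE), limma adjusted p = 4.23e-05), the smallest p of any member. Efnb1 had 17.6 and 123 normalized reads with UV and 46.6 and 32.3 without UV in EGFP+ cells, against 322 and 291 with UV and 488 and 444 without UV in tdTomato+ cells, with no overlap (log2 fold change -3.11 ± 0.57 (SE), limma adjusted p = 0.00407). The Efnb1 call was lost in 4 of 8 fits without 1 library. Efnb3 stayed under 10 in every library.

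Eph receptors had no member higher in EGFP+ cells, where 9.66% of all genes were higher. Of 13 tested, 7 were lower (53.8%, against 19.2% of all genes) and 6 did not pass. Epha4, which can bind ephrins of both kinds, had 1.68 and 0 normalized reads with UV and 12.5 and 0 without UV in EGFP+ cells, against 553 and 407 with UV and 934 and 1176 without UV in tdTomato+ cells. Its EGFP+ libraries reached at most 12.5 (log2 fold change -8.17 ± 0.87 (SE), limma adjusted p = 0.00023), and with UV it had 2 reads in EGFP+ cells against 1042 in tdTomato+ cells (tdTomato+ over EGFP+ 509, 95% counting interval 141 to 4209). Epha2, an epithelial receptor of Efna1, had 78.9 and 11.9 normalized reads with UV and 62.4 and 134 without UV in EGFP+ cells, against 386 and 397 with UV and 499.8 and 524 without UV in tdTomato+ cells (log2 fold change -3.04 ± 0.57 (SE), limma adjusted p = 0.00439). Epha1 had 15.1 and 0 normalized reads with UV and 4.16 and 17.1 without UV in EGFP+ cells, against 78.8 and 96.4 with UV and 85.1 and 82.8 without UV in tdTomato+ cells (log2 fold change -3.80 ± 0.98 (SE), limma adjusted p = 0.0199). Both had no overlap, while the call of Epha1 was lost in 6 of 8 fits without 1 library and that of Epha2 in 5. The other EphA genes tested were Epha3, Epha5, Epha7, Epha8 and Epha10, none of which passed.

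In the EphB class 4 of 5 were lower, against 19.2% of all genes. Ephb3 had 0 and 0 normalized reads with UV and 16.6 and 14.3 without UV in EGFP+ cells, against 63.2 and 91.8 with UV and 161 and 139.9 without UV in tdTomato+ cells. It had 0 reads in UV EGFP+ cells, which puts it at least 54.7-fold lower there than in UV tdTomato+ cells (log2 fold change -6.27, limma adjusted p = 0.00245). Over all mice it was lower by a smaller fold (log2 fold change -4.74 ± 0.64 (SE), limma adjusted p = 0.000851). Ephb4, the receptor of Efnb2 in veins, had 59.6 and 130.4 normalized reads with UV and 63.2 and 41.8 without UV in EGFP+ cells, against 230.0 and 254 with UV and 306 and 345 without UV in tdTomato+ cells (log2 fold change -2.04 ± 0.37 (SE), limma adjusted p = 0.00396), and it was the least reduced of the called Eph receptors. Ephb6, which lacks kinase activity, had 33.6 and 71.1 normalized reads with UV and 17.5 and 75.1 without UV in EGFP+ cells, against 155 and 249 with UV and 294 and 778 without UV in tdTomato+ cells (log2 fold change -2.83 ± 0.58 (SE), limma adjusted p = 0.00695). The Ephb6 call was lost in 3 of 8 fits without 1 library. Ephb1 had 0 and 0 normalized reads with UV and 8.32 and 2.85 without UV in EGFP+ cells, against 69.6 and 37.1 with UV and 34.2 and 17.1 without UV in tdTomato+ cells (log2 fold change over all mice -3.89 ± 0.76 (SE), limma adjusted p = 0.00562). With 0 reads in UV EGFP+ cells, Ephb1 was at least 37.8-fold lower there than in UV tdTomato+ cells (log2 fold change -5.70, limma adjusted p = 0.00849). Ephb2 did not pass (log2 fold change -1.81 ± 0.82 (SE), limma adjusted p = 0.138).

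Split by UV arm, the EGFP+ against tdTomato+ contrast called 16 of 52 members with UV, where 17.9% of all genes passed: 1 was higher (background 5.03%) and 15 were lower (12.9%). Without UV it called 13, where 19.2% of all genes passed: 3 were higher (background 6.67%) and 10 lower (12.5%). At an unadjusted p under 0.05 there were 24 members with UV (31.1% of all genes) and 24 without UV (31.2%). The libraries did not overlap for 4 higher and 28 lower members with UV (18.9% and 33.7% of all genes) and for 13 higher and 30 lower members without UV (23.7% and 34.2%). With UV the higher member was Plxnc1 (log2 fold change 3.95 ± 0.79 (SE), limma adjusted p = 0.0108), and without UV they were Plxnc1 (log2 fold change 8.47 ± 0.79 (SE), limma adjusted p = 0.000257), Sema3a and Sema3b. Efna3 had -7.80 ± 0.99 with UV and -7.64 ± 0.99 without UV, Efnb2 had -6.28 ± 0.66 and -5.81 ± 0.66, and Epha4 had -8.18 ± 1.22 and -8.16 ± 1.22. Each of these 3 passed in both arms. These arms are 2 against 2 libraries that share the pooled spread of the fit, and without UV EGFP+ replicate 2 the UV contrast called 15 members and lost Plxnc1 (0.0563), Plxna2 (0.0894) and Sema4g (0.0644). With mouse as a block Ephb3 was lost without UV (0.0889), and Efnb1 (0.0499) and Sema4a (0.0376) were added with UV.

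Within EGFP+ cells, UV against no UV called 0 of 52 members (limma; 0.0166% of all genes passed). At an unadjusted p under 0.05 there were 15 members (28.8%), against 10.4% of all genes. Between UV and no UV libraries, 25 members were lower without overlap (48.1%, against 20.7% of all genes) and 1 was higher (12.7% of all genes), and the median log2 fold change was -1.34, beside -0.11 over all genes. The library with 28 members at 0 is in this contrast, and without it 9 members (17.3%) had an unadjusted p under 0.05, against 8.12% of all genes, with a median of -0.58. Markers of other cells also moved in this contrast, though none passed. Lower with UV without overlap were 5 of 6 Schwann cell markers (median log2 fold change -4.27), 2 of 6 fibroblast and 2 of 6 immune markers. Of 8 melanocyte markers, 4 were higher and 1 lower without overlap. The part of such cells in the differences of the members was not tested. DESeq2 called 6 members, all lower with UV: Ephb3, Nrp2, Plxna2, Plxna4, Sema3b and Sema3d. edgeR called Sema3d alone. Of all 18070 genes, DESeq2 called 361 and edgeR 120 in this contrast. Sema3d had 5.03 and 1.08 normalized reads with UV and 252 and 46.6 without UV (log2 fold change -4.95 ± 1.02 (SE), limma adjusted p = 0.163). Nrp2 had 0 and 1.08 with UV and 46.6 and 25.7 without UV (log2 fold change -4.63 ± 0.89 (SE), limma adjusted p = 0.152), and Sema3b 62.1 and 21.6 with UV and 319 and 408 without UV (log2 fold change -3.26 ± 1.07 (SE), limma adjusted p = 0.364).

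**Figure D4:**
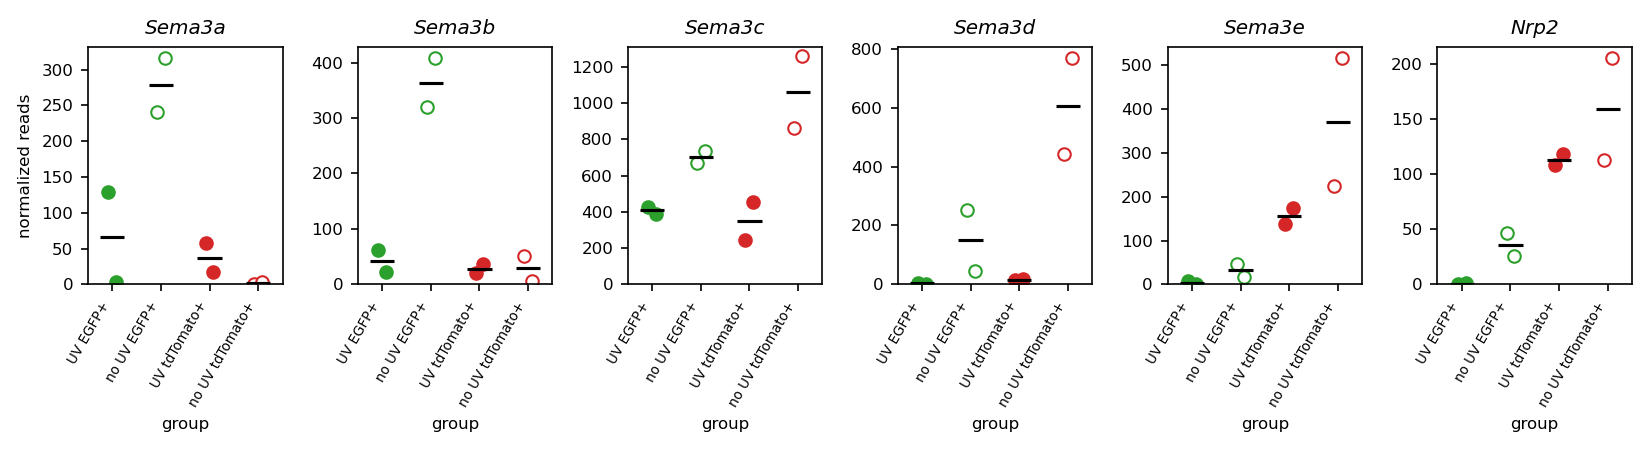
Normalized reads per library (linear axis from 0) of 5 class 3 semaphorins and Nrp2 in the 4 groups, with a bar at the mean of 2 libraries. Sema3d and Sema3c are lower with UV in both sorts, and Sema3a is lower with UV in EGFP+ and higher in tdTomato+ cells.

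Within tdTomato+ cells, UV against no UV called 1 of 52 members, where 0.559% of all genes passed (0.349% higher and 0.21% lower with UV). It was Plxnc1, at 152 and 217 normalized reads with UV and 16.6 and 1.43 without UV (log2 fold change 4.80 ± 0.79 (SE), limma adjusted p = 0.0476). Melanocyte markers rose in the same contrast: 5 of 8 passed, 7 did not overlap, and their summed level was 23228 and 44454 normalized reads with UV and 5571 and 2616 without UV. Per 1000 reads of those markers, Plxnc1 had 6.55 and 4.88 in UV tdTomato+ and 2.98 and 0.546 in no UV tdTomato+ cells, with 5.86 and 3.87 in UV EGFP+ and 3.76 and 4.69 in no UV EGFP+ cells. The no UV tdTomato+ ratios rest on only 16.6 and 1.43 normalized reads of Plxnc1, so they are imprecise. The part of melanocyte reads in the Plxnc1 difference was not tested. Markers of other cells moved as well. Without overlap, 4 of 6 fibroblast markers were lower and 1 higher with UV, 4 of 6 keratinocyte markers were lower, and 4 of 6 endothelial markers were higher. Their part in the differences of the members was not tested either. At an unadjusted p under 0.05 there were 7 members (13.4% of all genes), and the libraries did not overlap for 5 higher (21.6%) and 19 lower members (24.5%). The call of Plxnc1 was lost in 6 of 8 fits without 1 library and with replicate number as a block (limma adjusted p = 0.0526). Libraries of the same replicate number with and without UV are from different mice, so this block joins unrelated animals. By edgeR, Sema3c (-1.60, adjusted p = 0.0417) and Sema3d (-5.31, adjusted p = 0.00513) were also lower with UV, and DESeq2 added Efnb2 (-1.54, adjusted p = 0.0305). Of all 18070 genes, edgeR called 240 and DESeq2 629 in this contrast. Sema3c had 247 and 454 with UV and 861 and 1259 without UV, and Sema3d 13.7 and 16.7 with UV and 442 and 768 without UV, both without overlap and both short of the threshold in limma (adjusted p = 0.0982 and 0.0785).

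**Figure D5:**
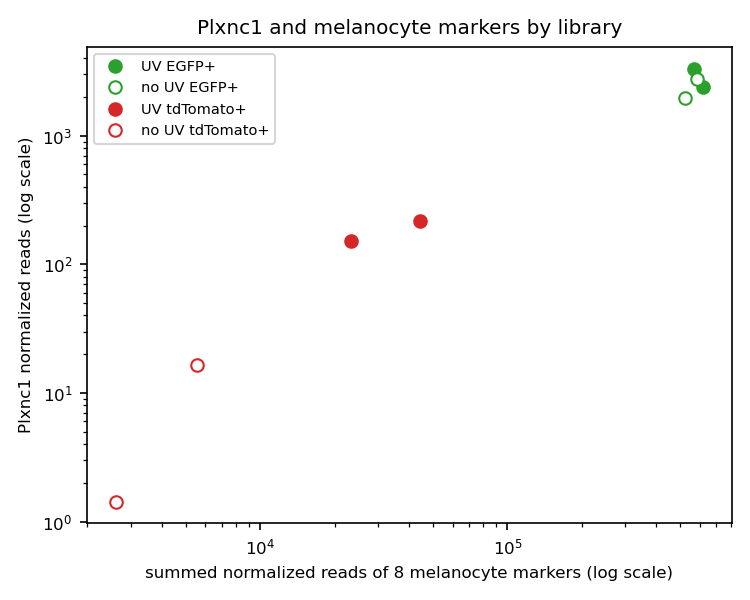
Plxnc1 against the summed melanocyte markers in each of the 8 libraries, both as normalized reads on log axes. The UV tdTomato+ libraries lie between the no UV tdTomato+ libraries and the EGFP+ libraries on both axes.

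The UV response itself differed between the sorts for 0 of 52 members (limma; 0.00553% of all genes passed), and 9 had an unadjusted p under 0.05, beside 10% of all genes. Plxnc1 had the smallest adjusted p among members (log2 fold change -4.53 ± 1.12 (SE), limma adjusted p = 0.265). edgeR called Plxnc1 (-3.95, adjusted p = 0.0117), and DESeq2 called Plxnc1 (1.09e-05), Sema3a (0.0448) and Nrp2 (0.0493). Among all 18070 genes, edgeR called 75 and DESeq2 291.

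Other genes of the 2 pathways, from lists of co-receptors, adaptors and effectors, were also examined in the all-mice contrast. Of 39 tested semaphorin pathway genes 10 were higher and 9 lower, with a median of -0.03, and among them Dpysl2, an axonal mediator of semaphorin signals, was higher by 3.70 ± 0.35 on the log2 scale and Nrcam, an adhesion partner of neuropilins, by 4.13 ± 0.44. Plxdc2, from the same list, was lower, at -4.44 ± 0.47. Of 38 Eph and ephrin pathway genes 5 were higher and 13 lower, with a median of -0.75. Sdcbp, the scaffold syntenin that binds B ephrins, was higher by 2.19 ± 0.09, and Vav3, an exchange factor recruited by Eph receptors, stood at -8.36 ± 0.87. Beside these counts, 9.66% of all genes were higher and 19.2% lower.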

How the data were processed

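Poly(A)+ RNA was sequenced without strand information, per the labels' protocols. The submitters' processing notes name the build mm10, the aligner TopHat2 2.0.12, DESeq2 1.14.1, Cufflinks 2.2.1 and FastQC. How reads were counted per gene, and on which annotation, is not given in the sources used here. Each signal value deposited by the authors is a normalized read count, and 195368 of 195368 values lay within 0.01 of whole reads divided by 1 size factor per library. The log2 fold changes, score and p-value columns in the table are the authors' deposited DESeq2 results and were used only for a count: the authors' deposited table had 6 members higher and 20 lower at adjusted p under 0.05, and 5 with none. Overlapping genes cannot be told apart.

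Differences were tested with limma 3.58.1 (R 4.3.3) on log2(normalized reads + 1), over all 8 libraries with 1 mean per group and moderation with a trend (4 residual degrees of freedom). A gene entered the test when its mean reached 1 in any group (18070 genes), with Benjamini-Hochberg adjustment over all of them. The script was tested on simulated data. Intervals and bounds, the latter from 3 reads over a group, cover counting error only. Each group held 2 mice, and the p-values rest on a spread pooled over the 4 groups and moderated across genes. In this fit the EGFP+ and tdTomato+ libraries of 1 mouse were treated as independent. The alternatives tried were quantile scaling, a rescaling that drops the 20 most abundant genes, other filters and pseudocounts, edgeR 4.0.16 and DESeq2 1.42.0 on the recovered reads, a replicate block, and leaving out each library or mouse 1. The replicate block was the mouse for EGFP+ against tdTomato+ cells and for the difference of UV responses. For UV against no UV within a sort it was the replicate number, which joins different mice. EGFP+ and tdTomato+ cells of 1 number are from the same animal, per the labels, and the deviations of the pairs correlated at 0.0873 and 0.0562. The members, lists and tests were chosen with earlier results of these data known. Values are given per library for members that passed a comparison with a mean of at least 50 in their highest group and for the most abundant member of a class, and up to 4 genes of a pathway list, by smallest p, were eligible. Plxna4 and the members named in counts of other tools fall outside this rule and were chosen after their values were seen. Gene positions and exon lengths came from GENCODE on GRCm38.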

Additional observations from a re-analysis of the deposited data

Results flagged for a closer look

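In 4 members the UV libraries were below the no UV libraries in EGFP+ cells and above them in tdTomato+ cells, with no overlap in either sort. Among all genes, 20.7% were lower without overlap in EGFP+ cells and 21.6% higher in tdTomato+ cells. The share of all genes with both was not computed, so the count of 4 has no background. The difference of the 2 UV responses (EGFP+ minus tdTomato+, log2 scale) was -1.57 for Efna5 (limma adjusted p = 0.446), -3.62 for Ephb1 (0.484), -7.59 for Sema3a (0.361) and -2.06 for Sema3f (0.608), so none of them passed. DESeq2 on the recovered reads gave Sema3a an adjusted p of 0.0448. UV EGFP+ replicate 2, the library with 28 members at 0 reads, is in all of these differences.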

How the results depend on the processing

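Of 948 values of single called members under the alternatives, 715 stayed past the threshold, 233 did not, and 0 changed direction. The block and leaving out a library outside the contrast cannot change a fold change. The absence of reversals was thus partly fixed in advance. Over all mice 13 of the 24 called members kept their call in each of 8 fits without 1 library, and the number called ran from 14 to 27 (14 without no UV tdTomato replicate 2 and 14 without UV tdTomato replicate 1). Without both libraries of mouse 1 it was 11, with 5 called with UV, 4 without UV, 1 for UV in EGFP+ cells, 2 for UV in tdTomato+ cells and 3 for the difference of the UV responses. Without 1 library the UV arm gave 4 (without UV tdTomato replicate 1) to 23 members, the no UV arm 4 (without no UV tdTomato replicate 2) to 20, UV in EGFP+ cells 0 to 12 (12 without UV EGFP replicate 1, where the remaining UV EGFP library is assumed to vary like the other groups), UV in tdTomato+ cells 0 to 3, and the difference of UV responses 0 to 4. With the libraries compared alone the UV arm gave 3 and UV in tdTomato+ cells 0. DESeq2 gave 21 without UV, 6 for UV in EGFP+, 4 for UV in tdTomato+ cells and 3 for the difference. Of all 18070 genes, DESeq2 called 4087, 361, 629 and 291 in these contrasts. edgeR gave 1, 3 and 1 for the last 3 of these contrasts, where it called 120, 240 and 75 genes. UV in tdTomato+ cells gave 2 under quantile normalization and 0 with a pseudocount of 0.1, with no filter and with the replicate block. The replicate block lost 2 of 24 calls over all mice, 1 of 13 without UV and 0 of 16 with UV, and added Efna2 (limma adjusted p = 0.0433) and Sema3a (0.026) over all mice and Efnb1 (0.0499) and Sema4a (0.0376) with UV. It lost Plxnc1 for UV in tdTomato+ cells (0.0526) and changed no other call of a member in the 6 contrasts. With a minimum of 50 normalized reads the detected ligands and receptors were 5 and 6 in UV EGFP+ cells and 9 and 8 in no UV EGFP+ cells, and the ligands 13 in UV tdTomato+ cells.

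Among all genes over all mice, 1746 were higher and 3471 lower (33.5% higher). Quantile normalization gave 2857 and 2672 (51.7%) and rescaling 2655 and 2895 (47.8%), and they moved the median of all genes by 0.446 and 0.208 log2 units. The other settings gave 0 to 1460 called genes for UV in EGFP+ cells (3 as reported), 0 to 1341 for UV in tdTomato+ cells (101) and 0 to 1328 for the difference (1). The UV arm ran from 958 to 4737 (3240) and the no UV arm from 1370 to 4300 (3468). Depth limits the members with few reads: 13 members reached 10 normalized reads in both libraries of no group.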

Other observations

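Slit, Robo, netrin and VEGF genes, which act beside the ephrins and semaphorins, were also examined between the sorts over all mice. Of 22 tested Slit, Robo, netrin and repulsive guidance genes 0 were higher and 4 lower in EGFP+ cells, with a median log2 fold change of -0.98, beside 9.66% higher and 19.2% lower among all genes. The share of lower genes was thus near that of all genes. Robo2, a Slit receptor, stood at -5.11 ± 0.69 (SE; limma adjusted p = 0.000851), and Rgma, a ligand of neogenin, at -1.83 ± 0.48 (0.0205). Slit3 and Ntn1, a Slit and a netrin ligand, had 0 reads in EGFP+ cells, which makes them at least 66.7-fold and at least 22.5-fold lower.

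Of 8 tested VEGF ligands and receptors, which share neuropilins with semaphorins, 2 were higher and 2 lower, beside 9.66% higher and 19.2% lower among all genes. Vegfc, a lymphatic growth factor, was higher by 4.35 ± 0.80 (limma adjusted p = 0.00416) and Vegfb by 2.29 ± 0.18 (5.28e-05). Figf, which encodes VEGF-D, stood at -5.63 ± 0.69 (0.000516). Flt1, a VEGF receptor of endothelium, had 1 read in EGFP+ cells against 189, a ratio of 212 (95% counting interval 37.7 to 8432), in step with endothelial markers, whose summed level was 1.08 to 49.9 normalized reads in EGFP+ and 74.2 to 1954 in tdTomato+ libraries. The part of endothelial cells in this difference was not tested.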
